A study of Homo sapiens with 18 samples.

Results

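Endothelial cells that had received siRNA against ELMO1 were compared with cells that had received a non-targeting siRNA, both 24 h after poly(I:C). The comparison holds the libraries titled siELMO1 and siNT at 24 h with poly(I:C), 3 of each, 6 of the 18 libraries of the series, and it is described over all expressed genes. The cells were EA.hy926, a line made by fusing human umbilical vein endothelial cells with the lung carcinoma line A549, so they carry an epithelial as well as an endothelial parent. They were transfected with 10 nM siRNA by Lipofectamine RNAiMAX, siELMO1 being a pool of 3 siRNAs to ELMO1 and siNT a non-targeting control. After a day in their usual serum they were moved to low serum overnight, before the poly(I:C). Poly(I:C), a synthetic double-stranded RNA, was added at 1 µg/ml 48 h after transfection, and RNA was taken 24 h later. The siNT cells therefore held a double-stranded siRNA before the poly(I:C) just as the siELMO1 cells did. The 0 h libraries of the same transfections (3 siELMO1 and 3 siNT) were used to ask whether a difference was already there before poly(I:C), and the 3 Mock libraries at 24 h, which had Lipofectamine and poly(I:C) but no siRNA, to place the 2 groups against cells without siRNA.

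Poly(I:C) is read in the endosome by Toll-like receptor 3, which signals through TICAM1 (TRIF), and in the cytosol by RIG-I (RIGI) and MDA5 (IFIH1), which signal through MAVS. Both routes reach the kinases that switch on IRF3 and IRF7, and so interferon β, and the IKK complex that frees NF-κB, and so chemokines, cytokines and adhesion molecules. TLR3 can also engage RIPK1, FADD and caspase-8, and then the cell dies. ELMO1 is a scaffold without catalytic activity that binds DOCK-family exchange factors and helps them load RAC1 with GTP, which drives actin assembly in engulfment and migration. In bulk RNA a smaller number of cells of one kind and less RNA in each of them cannot be told apart. The study reports extensive death of siNT cells after poly(I:C), and less of it in Mock and siELMO1 cells. It proposes cell death as the likely reason for the lower inflammatory response of siNT cells. The siNT group is therefore not a reference of equally viable cells. How much of each difference below came from dying cells was not tested.

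The 6 libraries held 52085218 to 68890603 estimated counts, and 15167 genes passed the filter on low counts. Levels are given as CPM, the count divided by the TMM-scaled library size and expressed on a common scale for all libraries, and a gene was called where edgeR's quasi-likelihood test gave an adjusted p under 0.05. The labels do not say that replicates came from separate cultures, while the study describes biological replicates, so the p-values measure the spread between these libraries. Replicate 3 stood apart in both groups: the mean chi-square per gene was 10.4 between replicates 1 and 2 of siNT but 26.0 and 29.2 with replicate 3, and 11.2 against 22.6 and 25.9 in siELMO1. Each count below was therefore also made without replicate 3 of both groups, and that value stands beside the result where it moved by over 1.5 times. The share of counts on mitochondrially encoded genes was 2.06 to 2.42% in siNT and 1.81 to 2.14% in siELMO1, and on ribosomal protein genes 3.79 to 4.21% against 3.19 to 3.39%.

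ELMO1 (ENSG00000155849.16, chr7:36852906-37449223, minus strand, GRCh38) was the gene targeted. Its level was 3.38, 2.98 and 3.58 CPM in the siNT libraries and 0.288, 0.155 and 0.359 CPM in the siELMO1 libraries, with no overlap (12.5-fold lower, log2 fold change -3.64, SE 0.29, adjusted p = 1.43e-08). In siNT, 507 of 549 ELMO1 counts (92.3%) fell on 1 transcript, ENST00000310758.9. Of the paralogs, ELMO2 was slightly higher, at 79.8 ± 5.08 (SD, n = 3) in siNT and 90.7 ± 1.54 CPM in siELMO1 (log2 fold change 0.18, adjusted p = 0.00391), and ELMO3, at 1.20, 2.07 and 1.75 CPM in siNT, did not pass the test (-0.08, adjusted p = 0.821).

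Of the genes tested, 732 were more than 2-fold higher in siELMO1 than in siNT (4.83%) and 376 more than 2-fold lower (2.48%). Without the fold limit, 3950 were higher (26%) and 4025 lower (26.5%), and most of these differed by less than 2-fold. Of the 732 higher genes, 137 differed by more than 4-fold and 34 by more than 8-fold, 559 were protein-coding and 140 were long non-coding RNAs. In 713 of them no siELMO1 library overlapped a siNT library. Of the 376 lower genes, 59 differed by more than 4-fold and 18 by more than 8-fold, and 363 had no overlap. Over all 15167 genes 9012 had no overlap (59.4%). The plot of fold change against level marks COL5A1, CXCL1, CSF2 and TNF among the higher genes and SLC7A11, SULT1B1 and SERPINB2 among the lower ones.

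**Figure D1:**
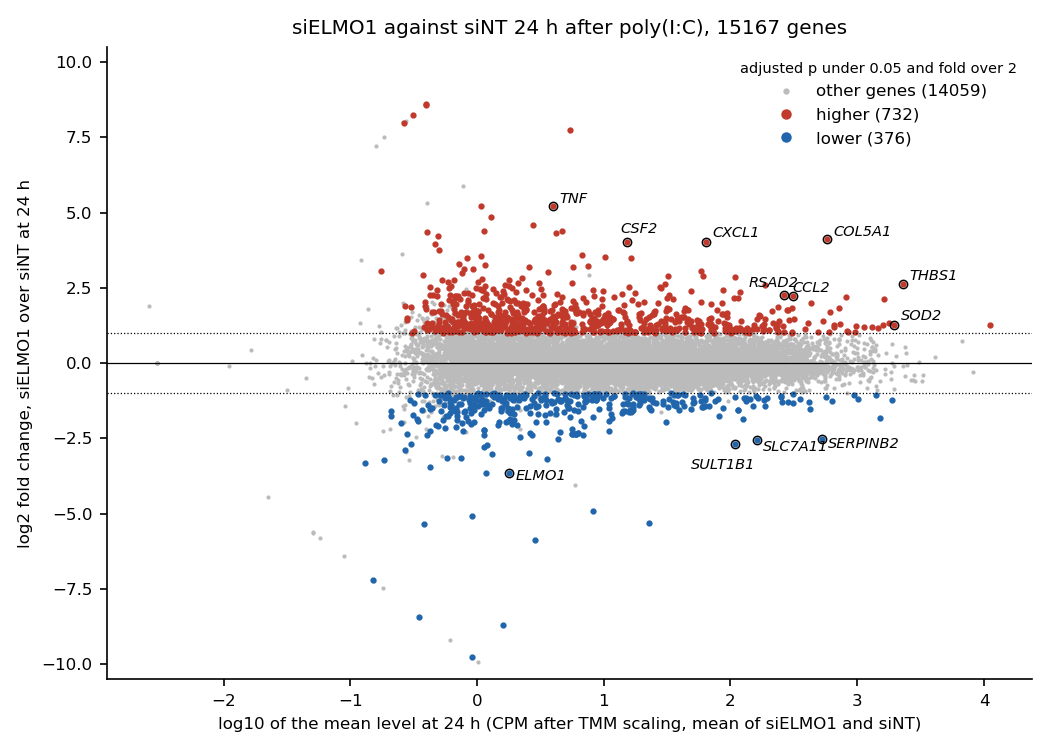
Each point is 1 of the 15167 genes tested, with the log10 mean CPM of the siELMO1 and siNT libraries at 24 h on the horizontal axis and the log2 fold change of siELMO1 over siNT on the vertical axis. The 732 genes higher and 376 lower at adjusted p under 0.05 and fold over 2 are coloured, dotted lines mark a 2-fold difference, named genes are circled, and 6 genes at 0 in every library of the comparison stand at the left edge.

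Much of the difference was already there before poly(I:C). In the 0 h libraries, 4750 genes were higher in siELMO1 (31.3%) and 4752 lower (31.3%). Of the 732 genes higher at 24 h, 529 (72.3%) were also higher at 0 h, 20 were lower and 183 were not called. Of the 376 lower genes, 257 (68.4%) were lower at 0 h and 7 higher. The median log2 fold change of the 732 genes was 1.38 at 24 h and 1.19 at 0 h, and that of the 376 genes was -1.35 and -1.02. Across the 15167 genes the log2 fold changes at the 2 times correlated with r = 0.462, a description over genes, which are not independent. Values at 0 h are therefore given beside those at 24 h. The difference is next taken with its sign, siELMO1 minus siNT, so a deficit that shrinks counts as higher. By the interaction test this signed difference was higher at 24 h than at 0 h in 2533 genes (16.7%) and lower in 2700 (17.8%). With a fold limit of 2, these were 581 genes (3.83%) and 360 genes (2.37%).

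Against Mock at 24 h, the median log2 fold change of the 732 higher genes was 0.66 for siELMO1 and -0.84 for siNT, and that of the 376 lower genes was -0.56 and 0.84. These values share their siELMO1 and siNT libraries with the comparison that chose the genes, so their signs are partly fixed by it. They are given as the place of each group: at the median, Mock lay between the 2 siRNA groups.

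Promoters of some genes that differed are shown first, each as 250 bases before and 50 after the RefSeq start in GRCh38.p14, read on the gene's strand. The kappa-B core (GGANNTTCC), the letters that NF-κB dimers bind, is in capitals in CXCL1, CSF2 and IL6, and the core of the interferon-stimulated response element (GAAANNGAA) in RSAD2 and ISG15. The core of the antioxidant response element (TGACNNNGC), bound by NRF2 with a small MAF protein, is in capitals in GCLM, where the match is on the other strand. Only promoters that hold a core are shown, of genes that were higher in siELMO1 (CXCL1, CSF2, IL6, RSAD2 and ISG15) or lower (GCLM). They therefore do not show how often a core goes with a change.
CXCL1 (chr4:73869143-73869442, plus strand): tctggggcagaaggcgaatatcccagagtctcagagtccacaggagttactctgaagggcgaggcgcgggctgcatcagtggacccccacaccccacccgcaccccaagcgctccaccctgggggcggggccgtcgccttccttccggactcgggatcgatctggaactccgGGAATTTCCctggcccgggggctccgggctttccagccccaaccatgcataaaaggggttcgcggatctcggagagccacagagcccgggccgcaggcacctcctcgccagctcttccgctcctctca
CSF2 (chr5:132073539-132073838, plus strand): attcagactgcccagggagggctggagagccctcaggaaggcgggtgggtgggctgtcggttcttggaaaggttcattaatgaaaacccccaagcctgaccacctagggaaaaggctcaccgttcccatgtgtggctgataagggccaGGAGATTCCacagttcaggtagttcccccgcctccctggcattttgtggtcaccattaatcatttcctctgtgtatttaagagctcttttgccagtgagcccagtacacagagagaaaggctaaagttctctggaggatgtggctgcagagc
IL6 (chr7:22726950-22727249, plus strand): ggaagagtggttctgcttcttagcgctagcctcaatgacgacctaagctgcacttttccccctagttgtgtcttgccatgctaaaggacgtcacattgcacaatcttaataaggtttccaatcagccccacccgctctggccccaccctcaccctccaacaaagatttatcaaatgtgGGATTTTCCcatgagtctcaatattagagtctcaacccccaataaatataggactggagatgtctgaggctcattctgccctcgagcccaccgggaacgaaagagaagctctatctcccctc
RSAD2 (chr2:6865635-6865934, plus strand): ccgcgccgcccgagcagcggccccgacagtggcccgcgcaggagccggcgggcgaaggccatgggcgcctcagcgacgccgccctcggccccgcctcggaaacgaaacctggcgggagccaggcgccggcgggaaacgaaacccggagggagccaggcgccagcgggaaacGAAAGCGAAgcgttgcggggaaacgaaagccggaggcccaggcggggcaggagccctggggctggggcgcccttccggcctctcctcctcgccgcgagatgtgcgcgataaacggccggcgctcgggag
ISG15 (chr1:1013247-1013546, plus strand): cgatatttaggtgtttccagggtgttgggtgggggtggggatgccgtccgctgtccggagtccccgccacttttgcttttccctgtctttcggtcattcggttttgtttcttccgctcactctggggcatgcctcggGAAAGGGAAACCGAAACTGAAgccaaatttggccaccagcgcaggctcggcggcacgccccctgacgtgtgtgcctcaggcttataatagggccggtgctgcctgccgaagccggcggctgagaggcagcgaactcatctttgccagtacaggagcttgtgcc
GCLM (chr1:93909381-93909680, minus strand): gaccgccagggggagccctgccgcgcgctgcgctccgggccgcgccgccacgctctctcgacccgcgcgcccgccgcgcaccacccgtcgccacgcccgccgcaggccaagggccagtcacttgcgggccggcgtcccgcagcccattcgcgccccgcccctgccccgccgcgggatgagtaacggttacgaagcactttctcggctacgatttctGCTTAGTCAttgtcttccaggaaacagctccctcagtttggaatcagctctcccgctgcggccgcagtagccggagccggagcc
The matches start 78 bases before the gene's start in CXCL1, 102 in CSF2 and 72 in IL6 for the kappa-B core. In RSAD2 the response element core starts 79 bases before, and ISG15 has 3 overlapping matches that start 113, 107 and 101 bases before. Searched on both strands, the kappa-B core was in 6 of the 8 chemokine promoters in the table (75%), against 4.56% of the 10689 promoters of genes tested. The interferon response core was in 27 of 38 promoters of interferon-stimulated genes (71.1%), against 6.78%. The antioxidant core was in 8 of 28 promoters of NRF2 target genes (28.6%), against 15.2%. Targets with this core went both ways. GCLM (-0.73) and TXNRD1 (-1.21) were among those lower in siELMO1, ME1 (0.41) and GSTP1 (0.17) were higher, and others were not called. Among all promoters of the more than 2-fold higher genes 7.51% held the kappa-B core and 9.29% the interferon core, and among those of the lower genes 3.48% and 4.98%. The antioxidant core was in 14.4% of the promoters of the higher genes and in 14.4% of those of the lower genes, near its share of all promoters. A match is a run of letters and not a shown binding site.

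Sensors of double-stranded RNA and their adaptors were in part higher in siELMO1: 8 of 14 tested members of the list rose (57.1%). The others were not called, beside 26% higher and 26.5% lower of all genes. The median log2 fold change was 0.41 (all genes tested, -0.01). Of the kinase genes tested in this list only IKBKE rose. RIGI, which detects short double-stranded RNA in the cytosol, was at 611, 522 and 782 CPM in the siNT libraries and 1221, 1172 and 1484 CPM in the siELMO1 libraries (2.02-fold higher, log2 fold change 1.02, SE 0.11, adjusted p = 7.04e-07). The groups did not overlap, and siNT replicate 3 was the highest of its group. The kinase gene IKBKE, which phosphorylates IRF3, stood at 51.6, 51.8 and 55.1 CPM in siNT and 100.4, 101 and 100.0 CPM in siELMO1 (log2 fold change 0.93), with 0.95 at 0 h. IFIH1 (MDA5) rose by 0.51 and DHX58 (LGP2) by 0.71 on the log2 scale, with adjusted p = 3.42e-04 and 2.74e-04. TLR3 itself was at 115, 110.1 and 149 CPM in the siNT libraries and 151, 142 and 172 CPM in the siELMO1 libraries. Its 2 groups overlapped, the log2 fold change was 0.32 (adjusted p = 0.0182), and the call was lost without siELMO1 replicate 3 (0.24, adjusted p = 0.0979), siNT replicate 1 (0.26, adjusted p = 0.0829) or siNT replicate 2 (0.23, adjusted p = 0.101). The adaptor genes TICAM1, with a log2 fold change of -0.15 (adjusted p = 0.0713), and MAVS, with -0.08 (adjusted p = 0.295), did not pass the test. Other adaptor genes of the list were among the 8 that rose. TICAM1 was called lower by limma-voom (adjusted p = 0.0489), with library totals in place of TMM (0.0155) and in a fit of the compared libraries alone (0.0444).

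IFNB1 and IFNL1, interferons made in answer to these sensors, were higher in siELMO1 than in siNT and below Mock. IFNB1 was at 1.70, 1.43 and 1.91 CPM in the siNT libraries and 5.80, 5.51 and 11.6 CPM in the siELMO1 libraries (4.53-fold higher, log2 fold change 2.18, SE 0.31, adjusted p = 5.10e-05), and at 20.3, 21.3 and 27.4 CPM in Mock. All siELMO1 libraries lay above all siNT libraries and below all Mock libraries. IFNL1, a type III interferon, showed the same order: 0.458, 0.678 and 0.769 CPM in siNT, 2.58, 2.08 and 3.75 in siELMO1 and 7.74, 7.58 and 8.28 in Mock (siELMO1 over siNT, log2 fold change 2.13, adjusted p = 5.43e-05). IFNAR1, a chain of the type I interferon receptor, fell by 0.41 on the log2 scale (adjusted p = 2.91e-05). Of the 8 tested interferons and receptors, 2 rose (25%) and 2 fell (25%), shares near the 26% and 26.5% of all genes. Of the 19 tested interferon regulatory factors, STATs, SOCS genes, Janus kinases and USP18, 9 rose (47.4%) and 3 fell (15.8%, median 0.27). STAT3 rose by 1.10 and STAT2 by 0.51, both also higher at 0 h (1.38 and 0.47). IRF9, a DNA-binding factor of type I interferon signalling, went the other way, at 77.2, 101 and 115 CPM in siNT and 52.8, 48.8 and 48.1 CPM in siELMO1 (log2 fold change -0.97, adjusted p = 6.14e-05). IRF7 rose by 0.32 (adjusted p = 0.00557).

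Interferon-stimulated antiviral genes were higher as a group, mostly by less than 2-fold. Of 52 tested, 37 rose and 1, IFITM2, fell, against 26% and 26.5% of all genes (without replicate 3 of both groups 41 rose and IFITM2 was not called), and the median log2 fold change was 0.38. At 0 h the median was -0.21. The signed difference was higher at 24 h than at 0 h in 31 of the 52 and lower in 3, against 16.7% and 17.8% of all genes. The largest change was in RSAD2 (viperin), which makes a chain-terminating nucleotide: 96.2, 90.1 and 143 CPM in the siNT libraries and 494, 457 and 586 CPM in the siELMO1 libraries (4.67-fold higher, log2 fold change 2.22, SE 0.17, adjusted p = 7.87e-09). OASL, a relative of the oligoadenylate synthetases that boosts RIG-I signalling, was at 251, 224 and 382 CPM in the siNT libraries and 855, 817 and 1132 CPM in the siELMO1 libraries (log2 fold change 1.71, adjusted p = 1.84e-07). Neither gene's groups overlapped, although siNT replicate 3 reached well above replicates 1 and 2 in both. ISG15, a ubiquitin-like modifier, was at 355, 332 and 455 CPM in siNT and 663, 590.0 and 681 CPM in siELMO1 (0.76, adjusted p = 8.10e-05). IFIT2 rose by 0.77 and IFIT1 by 0.38, both binders of foreign RNA, and the call of IFIT1 was lost without siNT replicate 2 (0.29, adjusted p = 0.0507). OAS1 (0.15, adjusted p = 0.0746) and MX1 (0.30, adjusted p = 0.237) did not pass, and their groups overlapped. OAS1 was called without siNT replicate 3 (0.25, adjusted p = 8.38e-04) and by DESeq2 (adjusted p = 0.0354). Among 21 antigen presentation genes 10 rose (47.6%, against 26% of all genes) and the others were not called (median 0.26). The rises were led by HLA-E (0.68), the peptide-trimming enzyme ERAP1 (0.66) and the chaperone CALR (0.71). Their log2 fold changes at 0 h were 0.86, 0.68 and 0.92. ERAP1 overlaps CAST on the other strand, and its value may include reads of CAST. The peptide transporter gene TAP1 rose by 0.50 at 24 h and had 0.23 at 0 h (adjusted p = 0.0573), and the change between the times did not pass the test (adjusted p = 0.145).

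Chemokines showed the largest median of the 36 lists. Of 12 tested, 10 rose (83.3%, against 26% of all genes) and the other 2 were not called. The median log2 fold change was 1.46 at 24 h and -0.11 at 0 h. CXCL1, which draws neutrophils through CXCR2, was at 7.27, 6.84 and 7.99 CPM in the siNT libraries and 112, 103 and 145 CPM in the siELMO1 libraries (16.3-fold higher, log2 fold change 4.02, SE 0.20, adjusted p = 7.88e-11). Its level in Mock was 128, 112 and 139.6 CPM, within the range of siELMO1. Before poly(I:C) it was at or under 0.897 CPM in each siRNA library and lower in siELMO1 (log2 fold change -1.17, adjusted p = 0.0306).

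CCL2, the main attractant of monocytes, was at 86.3, 82.0 and 105 CPM in the siNT libraries and 402, 401 and 503 CPM in the siELMO1 libraries (4.77-fold higher, log2 fold change 2.25, SE 0.12, adjusted p = 1.91e-10), and at 293, 241 and 342 CPM in Mock. Every siELMO1 library stood above every Mock library, and every siNT library below. CXCL8 (interleukin 8) was at 259.7, 243 and 207 CPM in siNT, 614, 511 and 640.3 CPM in siELMO1 and 1200.5, 1114 and 1137 CPM in Mock. Here siELMO1 lay between the others (siELMO1 over siNT, log2 fold change 1.31, adjusted p = 1.31e-08). CXCL2 was between them in the same way (log2 fold change 1.48, with means of 24.3 ± 2.26, 67.7 ± 10.4 and 128 ± 6.27 CPM in siNT, siELMO1 and Mock, SD, n = 3).

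CXCL10, which attracts T cells and depends on interferon as well as NF-κB, was listed at 0 in all siRNA libraries at 0 h. At 24 h it was at 6.95, 6.75 and 9.07 CPM in the siNT libraries and 25.4, 23.5 and 40.9 CPM in the siELMO1 libraries (log2 fold change 1.98, adjusted p = 1.29e-05). CCL4 rose by 2.67 (adjusted p = 1.02e-05). CCL5 was at 26.7, 27.3 and 46.2 CPM in the siNT libraries and 69.4, 70.1 and 109.7 CPM in the siELMO1 libraries (1.31, adjusted p = 2.90e-04). The groups did not overlap, but replicate 3 was high in both, and DESeq2 gave an adjusted p of 0.0881 for CCL5. Over the chemokine list the median log2 fold change against Mock was -0.31 for siELMO1 and -2.31 for siNT, 2 values that share the Mock libraries.

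**Figure D2:**
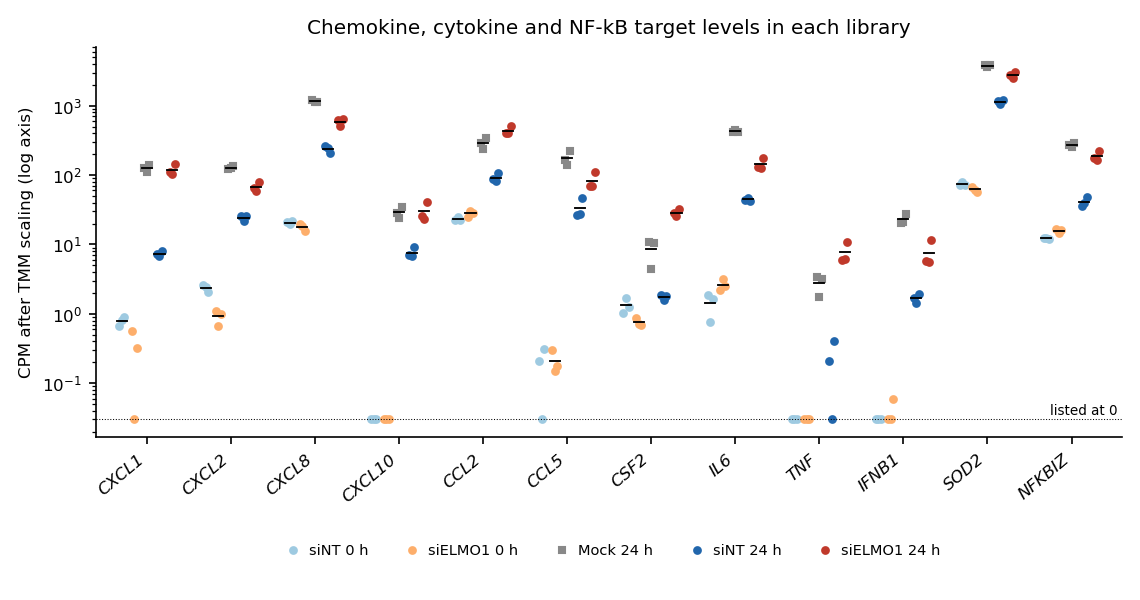
Each point is the CPM of 1 library on a log axis, with 3 libraries in each of 5 groups for 12 genes, and a black bar marks the mean of groups with no library at 0. Libraries at 0 stand on the dotted line at the bottom. At 24 h the siELMO1 points lie above the siNT points in every gene drawn, and the distance of both from Mock differs from gene to gene.

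Cytokine genes were less uniform: of 23 tested, 13 rose (56.5%) and 3 fell (13.0%), against 26% and 26.5% of all genes (median 0.69, at 0 h -0.14). CSF2 (GM-CSF), a growth factor of myeloid cells, was at 1.85, 1.59 and 1.82 CPM in the siNT libraries and 28.8, 25.4 and 32.0 CPM in the siELMO1 libraries (16.4-fold higher, log2 fold change 4.03, SE 0.28, adjusted p = 2.52e-09). It was above Mock (10.8, 4.37 and 10.4 CPM) in every siELMO1 library and, at 0 h, lower in siELMO1 than in siNT (-0.81, adjusted p = 0.0268). TNF was at 0.210, 0 and 0.402 CPM in the siNT libraries and 5.98, 6.10 and 11.0 CPM in the siELMO1 libraries, and was listed at 0 in all siRNA libraries at 0 h. It was higher in each siELMO1 library than in any siNT library and any Mock library (3.37, 1.72 and 3.22 CPM in Mock, siELMO1 over siNT, log2 fold change 5.22, adjusted p = 6.34e-05). LTB, which pairs with lymphotoxin α, rose by 3.60 (adjusted p = 1.05e-05).

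IL6 was at 44.3, 47.1 and 42.8 CPM in siNT, 130.0, 125 and 174 CPM in siELMO1 and 414, 444 and 423 CPM in Mock. The siELMO1 level was 3.19-fold higher than siNT (log2 fold change 1.67, adjusted p = 3.22e-08) and stayed far below Mock (-1.58). IL1B ran against the others: 227, 229.9 and 171 CPM in the siNT libraries and 132, 120.1 and 128 CPM in the siELMO1 libraries (-0.72, adjusted p = 1.33e-06), with Mock at 132, 124 and 124 CPM. It was lower in siELMO1 at 0 h as well (-0.95). IL11 fell by 1.44 and IL18 by 0.60 on the log2 scale, while IL1A rose by 0.29. TNFSF10 (TRAIL), a death ligand, was at 27.7, 22.7 and 52.7 CPM in the siNT libraries and 49.5, 47.2 and 83.04 CPM in the siELMO1 libraries with overlap between the groups (log2 fold change 0.80, adjusted p = 0.0306). The call was lost without siELMO1 replicate 3 (0.49, adjusted p = 0.185), siNT replicate 1 (0.67, adjusted p = 0.115) or siNT replicate 2 (0.57, adjusted p = 0.134), and by DESeq2 (adjusted p = 0.206) and in a fit of the compared libraries alone (0.0554). Without siNT replicate 3 the value was 1.25.

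Genes of NF-κB and its feedback were more often higher than lower in siELMO1. Of 28 tested, 15 rose (53.6%) and 4 fell (14.3%), against 26% and 26.5% of all genes (median 0.23, at 0 h -0.28). The largest rise was in ZC3H12A (regnase-1), an RNase that degrades cytokine mRNAs: 7.77, 7.32 and 10.3 CPM in the siNT libraries and 48.1, 49.7 and 60.9 CPM in the siELMO1 libraries (6.24-fold higher, log2 fold change 2.64, SE 0.17, adjusted p = 1.11e-09). NFKBIZ, a nuclear cofactor of NF-κB at IL6, was at 35.6, 39.9 and 48.8 CPM in the siNT libraries and 174, 162 and 223 CPM in the siELMO1 libraries (log2 fold change 2.17). TNFAIP2 rose by 1.87 and SOD2, the mitochondrial superoxide dismutase, was at 1161, 1069.6 and 1190.3 CPM in the siNT libraries and 2736, 2522 and 3049 CPM in the siELMO1 libraries (log2 fold change 1.28). None of these 4 overlapped between groups. SOD2 lies opposite WTAP and ACAT2, and the strand used in counting is not given, so its value may include their reads.

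The feedback inhibitors IκBα and A20 differed by less than 2-fold. NFKBIA (IκBα) rose by 0.25 and TNFAIP3 (A20) by 0.43 on the log2 scale at 24 h, after being lower in siELMO1 at 0 h (-0.54 and -0.98). BIRC3 (cIAP2), a ubiquitin ligase for RIPK1, was at 90.5, 85.7 and 103 CPM in the siNT libraries and 91.4, 85.0 and 109 CPM in the siELMO1 libraries, overlapping and not called (0.03, adjusted p = 0.825), after a clear deficit at 0 h (3.30, 4.68 and 3.32 CPM in siNT, 0.883, 0.602 and 0.838 CPM in siELMO1). TRAF1 was the gene of the list with the largest fall, at 96.3, 92.2 and 118 CPM in siNT and 55.5, 52.9 and 78.6 CPM in siELMO1 (-0.71, adjusted p = 1.00e-04), and Mock was higher than both (282, 290.4 and 328 CPM).

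Extracellular matrix genes were higher in siELMO1 at both times. Of 18 collagen genes tested 16 rose (88.9%, against 26% of all genes) and the other 2 were not called (median 1.24, at 0 h 0.89). COL5A1, which nucleates collagen fibrils, was at 59.1, 58.5 and 68.9 CPM in the siNT libraries and 1128, 1126 and 1012 CPM in the siELMO1 libraries (17.5-fold higher, log2 fold change 4.13, SE 0.28, adjusted p = 2.30e-09). At 0 h it was at 73.6, 63.4 and 74.1 CPM in siNT and 901, 909 and 855 CPM in siELMO1, and the change of the difference between the times did not pass the test (0.47, adjusted p = 0.327). Mock at 24 h was at 198, 64.6 and 85.2 CPM, near siNT in 2 of 3 libraries.

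The basement membrane chains COL4A1 and COL4A2, which share a divergent promoter, rose by 2.59 and 1.98. COL4A1 was at 49.97, 47.2 and 63.0 CPM in the siNT libraries and 318, 306 and 338 CPM in the siELMO1 libraries, without overlap. COL12A1 differed more at 24 h (1.63) than at 0 h (0.40), an interaction of 1.23 (adjusted p = 3.05e-05). Among 22 enzymes and chaperones that modify collagen 17 rose (77.3%) and 1, PCOLCE, fell (4.55%), against 26% and 26.5% of all genes (median 0.74). Lysyl hydroxylase PLOD1 rose by 1.44, prolyl hydroxylase P3H1 by 1.08 and the collagen chaperone SERPINH1 by 0.79, whereas the crosslinking oxidase LOX (-0.03, adjusted p = 0.841) and PLOD2 (0.05, adjusted p = 0.356) did not pass.

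Of 33 matrix glycoproteins 24 rose (72.7%) and 4 fell (12.1%), against 26% and 26.5% of all genes (median 0.77, at 0 h 0.75). LTBP1, which holds latent TGF-β in the matrix, was at 8.86, 8.46 and 20.4 CPM in the siNT libraries and 85.9, 91.7 and 136 CPM in the siELMO1 libraries (8.28-fold higher, log2 fold change 3.05, SE 0.31, adjusted p = 3.10e-07). EFEMP1 (fibulin 3) was at 542, 539.7 and 731 CPM in the siNT libraries and 2462, 2496 and 3032 CPM in the siELMO1 libraries (log2 fold change 2.14), and fibronectin, FN1, at 924, 939 and 964 CPM in the siNT libraries and 2238, 2337 and 2138 CPM in the siELMO1 libraries (1.25). The groups of these 3 genes did not overlap. LAMA4, the laminin chain of vessel basement membrane, rose by 1.22, while LAMA5 fell by 0.82 on the log2 scale (adjusted p = 2.93e-06).

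THBS1, a matricellular protein that activates TGF-β and binds CD47, was at 595, 570.4 and 774 CPM in the siNT libraries and 3884, 3852 and 4129.9 CPM in the siELMO1 libraries (6.12-fold higher, log2 fold change 2.61, SE 0.12, adjusted p = 4.08e-11). Of 7 thrombospondin and CCN genes 6 rose (85.7%, against 26% of all genes) and 1 was not called (median 1.02). CCN1 and CCN2, targets of YAP and TAZ, rose by 1.02 and 0.86. Of 17 integrins 12 rose (70.6%) and 2 fell (11.8%), against 26% and 26.5% of all genes (median 0.32). ITGB8 (1.84), ITGAV (0.89) and the fibronectin receptor chain ITGB1 (0.63) were among those that rose, and ITGAX (-1.53) and ITGA2 (-0.33) fell. Of 28 proteases and inhibitors 11 rose (39.3%) and 8 fell (28.6%), against 26% and 26.5% of all genes. MMP2, a gelatinase, was at 269.8, 273 and 327 CPM in the siNT libraries and 1262, 1349 and 1381 CPM in the siELMO1 libraries (2.20, adjusted p = 2.90e-09), and the surface protease FAP rose by 1.80. The collagenase MMP1 fell by 0.61 and the inhibitor TIMP1 by 0.43 on the log2 scale.

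**Figure D3:**
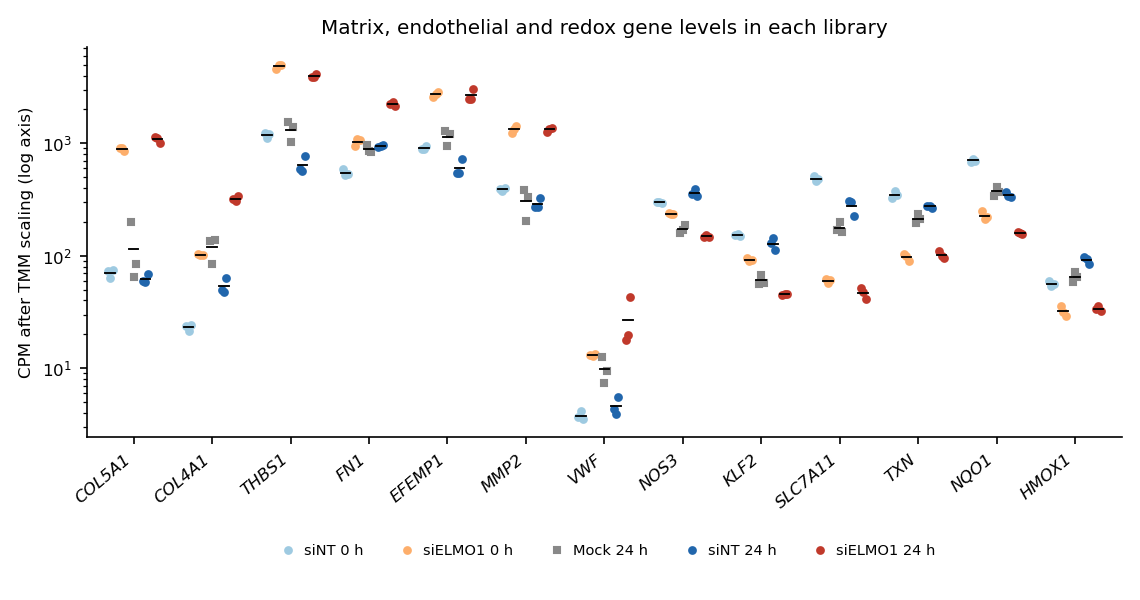
Each point is the CPM of 1 library on a log axis, with 3 libraries in each of 5 groups for 13 genes, and a black bar marks the group mean. COL5A1, THBS1, EFEMP1 and MMP2 were higher in siELMO1 at 0 h as well as 24 h, and SLC7A11, TXN and NQO1 lower at both times.

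Endothelial identity genes were mostly higher in siELMO1. Of 35 listed, 30 were tested. Of these, 19 rose (63.3%) and 2 fell (6.67%), against 26% and 26.5% of all genes (median 0.57, at 0 h 0.61). FLT4, EMCN and TAL1 had at most 3 counts in each of the 6 libraries. The summed level of the list was 4156 to 4668 CPM in siNT and 6334 to 7310.4 CPM in siELMO1. VWF, the platelet-binding protein of endothelial granules, was at 4.35, 3.94 and 5.54 CPM in the siNT libraries and 18.0, 19.8 and 42.8 CPM in the siELMO1 libraries (5.81-fold higher, log2 fold change 2.54, SE 0.26, adjusted p = 4.06e-07). The groups did not overlap, and siELMO1 replicate 3 stood far above the other 2. CDH5 (VE-cadherin) was at 496, 515 and 548 CPM in the siNT libraries and 866, 899.5 and 978 CPM in the siELMO1 libraries (0.82, adjusted p = 3.38e-08), and the receptors TEK and KDR rose by 0.56 and 1.18 (KDR by 0.65 without siELMO1 replicate 3, adjusted p = 0.0198). CLEC14A rose by 2.04 at 24 h, less than at 0 h (3.30, interaction -1.26, adjusted p = 6.79e-05). PECAM1 did not pass (-0.30, adjusted p = 0.281), and its groups overlapped (214, 211 and 266 CPM in siNT, 139.7, 158 and 265 CPM in siELMO1). Without siELMO1 replicate 3 (-0.63, adjusted p = 0.0196) it was called lower.

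In the endothelial list NOS3 and FLI1 fell, the latter by 0.25 on the log2 scale, a call lost without siELMO1 replicate 1 (-0.20, adjusted p = 0.0528) or siNT replicate 3 (-0.19, adjusted p = 0.0522). NOS3, the endothelial nitric oxide synthase, was at 357, 393 and 340.0 CPM in the siNT libraries and 147, 152 and 147 CPM in the siELMO1 libraries (2.44-fold lower, log2 fold change -1.29, SE 0.06, adjusted p = 1.97e-11). KLF2, a factor induced by laminar flow that drives NOS3 and thrombomodulin, was at 129, 143 and 114 CPM in the siNT libraries and 44.99, 45.9 and 45.7 CPM in the siELMO1 libraries (log2 fold change -1.49, adjusted p = 6.55e-11). Thrombomodulin itself, THBD, was at 210.5, 218 and 162 CPM in the siNT libraries and 59.2, 58.6 and 44.4 CPM in the siELMO1 libraries (log2 fold change -1.86, adjusted p = 3.89e-09). None of the 3 overlapped, and Mock lay between the groups: 160.4, 170.2 and 188 CPM for NOS3, 56.6, 67.5 and 56.8 for KLF2 and 88.6, 106 and 69.6 for THBD. At 0 h THBD did not pass (-0.26, adjusted p = 0.0831). NOS3 overlaps ATG9B on the other strand, which fell too (-1.95), and their reads may not be separable. KLF4, a close relative of KLF2, went up instead, at 31.6, 30.1 and 49.0 CPM in the siNT libraries and 91.4, 88.1 and 123 CPM in the siELMO1 libraries (1.45, adjusted p = 1.26e-06).

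Of 28 adhesion and coagulation genes 18 rose (64.3%) and 7 fell (25%), against 26% and 26.5% of all genes (median 0.61). ICAM1, the leukocyte integrin ligand, was at 288, 303 and 326 CPM in the siNT libraries and 540.4, 533 and 579 CPM in the siELMO1 libraries (0.85, adjusted p = 1.87e-08) and at 838, 819.8 and 914 CPM in Mock. VCAM1 and SELE, the other ligands for rolling and firm adhesion, were not tested, with at most 0.192 and 0.196 CPM in any of the 6 libraries. EDN1, the vasoconstrictor endothelin 1, was at 37.5, 33.4 and 46.9 CPM in the siNT libraries and 174, 176 and 172 CPM in the siELMO1 libraries (4.42-fold higher, log2 fold change 2.15, SE 0.11, adjusted p = 9.71e-11). Tissue factor, F3, rose by 1.35 and the tissue factor pathway inhibitor TFPI2 by 1.84. SERPINB2, an inhibitor of plasminogen activators, fell: 972, 914 and 803 CPM in the siNT libraries and 168, 150.2 and 149 CPM in the siELMO1 libraries (5.75-fold lower, log2 fold change -2.52, SE 0.08, adjusted p = 1.16e-12). The tissue-type activator PLAT fell too, at 415, 438 and 354 CPM in siNT and 180.0, 175 and 140.4 CPM in siELMO1 (-1.28), although it was higher in siELMO1 at 0 h (0.42, adjusted p = 2.85e-04).

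In the TGF-β and BMP pathway 21 of 39 tested genes rose (53.8%) and 7 fell (17.9%), against 26% and 26.5% of all genes (median 0.33, at 0 h 0.39). GREM1, a secreted BMP antagonist, was at 0.420, 0.0714 and 0.175 CPM in the siNT libraries and 5.45, 5.85 and 4.75 CPM in the siELMO1 libraries (4.60, adjusted p = 1.41e-06). Mock, at 4.49, 3.89 and 2.55 CPM, was near siELMO1. The ligand gene INHBA rose by 0.24 at 24 h against 1.86 at 0 h, and TGFB1 by 0.17 against 0.92, both smaller at 24 h by the interaction test (adjusted p = 1.25e-08 and 9.48e-06). The call of INHBA at 24 h was lost without siELMO1 replicate 1 (0.19, adjusted p = 0.108) or siNT replicate 3 (0.16, adjusted p = 0.135), and that of TGFB1 without siELMO1 replicate 2 (0.14, adjusted p = 0.134), siELMO1 replicate 3 (0.17, adjusted p = 0.0785), siNT replicate 1 (0.13, adjusted p = 0.163) or siNT replicate 2 (0.19, adjusted p = 0.0586). The inhibitory factors SMAD6 and SMAD7, which TGF-β and BMP signals induce, fell by 0.68 and 0.65 on the log2 scale, and the stress-induced ligand GDF15 by 0.78. In the Notch pathway 8 of 18 rose (44.4%) and 4 fell (22.2%), against 26% and 26.5% of all genes. The ligand DLL4 rose by 1.68 and the ligand JAG1 fell by 0.34, while the target genes HES1 (-0.09, adjusted p = 0.733) and HEY1 (-0.20, adjusted p = 0.36) did not pass. HES1 was called lower without siELMO1 replicate 3 (-0.50, adjusted p = 0.00798).

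Redox defence genes were lower in siELMO1 at both times. NRF2 (NFE2L2) drives genes of glutathione and thioredoxin metabolism through antioxidant response elements. Of 39 listed targets that were tested, 25 fell (64.1%) and 5 rose (12.8%), against 26.5% and 26% of all genes (median -0.38, at 0 h -0.66). SLC7A11, the cystine importer that supplies glutathione synthesis, was at 304, 300.05 and 226 CPM in the siNT libraries and 51.8, 47.4 and 41.5 CPM in the siELMO1 libraries (5.89-fold lower, log2 fold change -2.56, SE 0.11, adjusted p = 1.12e-11). At 0 h the levels were 507, 464 and 477 and 61.8, 57.2 and 61.1 CPM, and Mock at 24 h was between the groups at 170.3, 199 and 163 CPM. The groups did not overlap at either time.

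Thioredoxin, TXN, was at 279, 278 and 266 CPM in the siNT libraries and 109.6, 99.2 and 94.7 CPM in the siELMO1 libraries (log2 fold change -1.44, adjusted p = 5.81e-11), and its reductase TXNRD1 at 1493, 1511 and 1203 CPM in the siNT libraries and 643, 647 and 533 CPM in the siELMO1 libraries (-1.21). The quinone reductase NQO1 fell by 1.12, the heme oxygenase HMOX1 by 1.44 and the glutathione synthesis subunit GCLM by 0.73 on the log2 scale, each without overlap. In TXN, TXNRD1, NQO1 and GCLM the fall was larger at 0 h (-1.84, -1.59, -1.64 and -1.38, interaction adjusted p between 3.41e-06 and 0.0199). In HMOX1 it was larger at 24 h (-0.81 at 0 h, interaction -0.63, adjusted p = 4.06e-04). Over the list the signed difference was higher at 24 h in 23 of 39 genes and lower in 5. Over all genes the shares were 16.7% and 17.8%. GPX4, which reduces lipid peroxides, rose by 0.32 and malic enzyme ME1 by 0.41. AKR1C1, an aldo-keto reductase with near-identical neighbours that may share its reads, fell by 3.01. NFE2L2 fell by 0.38 (adjusted p = 1.43e-05). Of the 9 related factors 5 rose (55.6%) and 2 fell (22.2%), against 26% and 26.5% of all genes (1 fell without replicate 3 of both groups). Besides NFE2L2, KEAP1 was called lower. Its call was lost by DESeq2 (-0.13, adjusted p = 0.0562) and when any single library of the comparison was left out. BACH1, a repressor at the same elements, was up by 0.56 and NFE2L1 by 0.82. MAF rose to 2.36, 2.30 and 1.88 CPM from 0, 0.196 and 0.105 CPM (4.39, adjusted p = 8.86e-06).

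Of 22 genes of the unfolded protein response 16 rose (72.7%) and 2 fell (9.09%), against 26% and 26.5% of all genes (median 0.47, at 0 h 0.48). The endoplasmic reticulum chaperones HSP90B1 (894, 914 and 909.7 CPM in the siNT libraries and 2037, 2005 and 2010.2 CPM in the siELMO1 libraries, log2 fold change 1.16), HYOU1 (1.02) and HSPA5 (0.55) rose, and the translocon gene SEC61A1 fell (-1.04). Among 36 genes of ATF4 and amino acid supply 13 rose (36.1%) and 14 fell (38.9%), against 26% and 26.5% of all genes. SHMT2, of mitochondrial folate metabolism, was at 219.7, 231 and 203 CPM in the siNT libraries and 82.5, 82.3 and 76.9 CPM in the siELMO1 libraries (-1.44, adjusted p = 3.39e-11), and asparagine synthetase ASNS fell by 0.88. DDIT3 (CHOP) fell by 0.77 and ATF4 by 0.15, and for both genes all siRNA libraries were below all Mock libraries. The call of ATF4 was lost without siELMO1 replicate 3 (-0.12, adjusted p = 0.107), siNT replicate 1 (-0.15, adjusted p = 0.0519) or siNT replicate 2 (-0.14, adjusted p = 0.0755). Of 31 glycolysis and hypoxia genes 18 fell (58.1%, against 26.5% of all genes) and 7 rose (22.6%, under the 26% of all genes). LDHA was at -0.84 and PFKL at 1.31. Cholesterol genes had 11 of 26 higher (42.3%) and 5 lower (19.2%), against 26% and 26.5% of all genes. INSIG1 was at 0.75 and the exporter ABCA1 at 1.13. Of 20 heat shock genes 5 rose (25%) and 7 fell (35%, median -0.06), shares not far from those of all genes.

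Of 14 metabolic enzymes tied to inflammation 6 rose (42.9%) and 4 fell (28.6%), against 26% and 26.5% of all genes. PTGS2 (cyclooxygenase 2), which starts prostaglandin synthesis, was at 36.1, 34.6 and 35.9 CPM in the siNT libraries and 110.0, 100.4 and 153 CPM in the siELMO1 libraries (3.41-fold higher, log2 fold change 1.77, SE 0.13, adjusted p = 4.68e-09). Mock was higher than both groups (224, 228 and 248 CPM). At 0 h it was at 6.95, 4.84 and 6.14 CPM in siNT and 77.5, 77.7 and 65.6 CPM in siELMO1, and the difference decreased by 1.85 on the log2 scale (adjusted p = 5.63e-07). PTGES, the next enzyme towards prostaglandin E2, fell by 1.51 (adjusted p = 0.00901, and 0.0709 without replicate 3 of both groups). ACOD1, which makes itaconate, was at 2.94, 3.25 and 3.62 CPM in the siNT libraries and 9.21, 8.94 and 13.3 CPM in the siELMO1 libraries and far higher in Mock (56.6, 57.1 and 57.8 CPM). IDO1 overlapped between groups and was not called (0.02, adjusted p = 0.965).

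Of 24 death receptor and caspase genes 9 rose (37.5%) and 6 fell (25%), beside 26% and 26.5% of all genes (median 0.07). CASP8, the initiator caspase at TLR3 and death receptors, was at 106, 105 and 122 CPM in the siNT libraries and 124, 123 and 123 CPM in the siELMO1 libraries and was not called (0.15, adjusted p = 0.0538), but was without siNT replicate 3 (0.22, adjusted p = 0.00426), and by DESeq2 (0.0273), limma-voom (0.0449), RLE scaling factors (0.0367) and without mitochondrially encoded genes (0.0457). FADD (-0.16, adjusted p = 0.111) and FAS (0.06, adjusted p = 0.529) were not called either. CFLAR (c-FLIP), which restrains caspase-8, rose by 0.54 (adjusted p = 2.65e-04), with 108, 99.1 and 128 CPM in siNT and 144, 147 and 197 CPM in siELMO1. The TRAIL receptor genes TNFRSF10A and TNFRSF10D fell by 0.75 and 0.88.

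Of 16 BCL2 family genes 7 rose (43.8%) and 4 fell (25%), against 26% and 26.5% of all genes (median -0.01). The pro-death members BMF (1.77), BBC3 (PUMA, 1.10) and BAK1 (0.49) rose and BAD fell (-0.63). The protective BCL2A1, an NF-κB target, fell (-0.93, adjusted p = 3.55e-04). BCL2L1, which the study reports as restored in siELMO1 cells, was called slightly higher. That call was lost when any single library of the comparison was left out (without siELMO1 replicate 1, 0.08, adjusted p = 0.154). PMAIP1 (NOXA) was at 196, 184 and 235 CPM in the siNT libraries and 201, 188 and 256 CPM in the siELMO1 libraries, overlapping, and at 566, 522 and 599 CPM in Mock. These are transcript levels, and caspase cleavage was not measured here.

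The S phase and G2/M genes moved together between the times. At 0 h 42 of 43 S phase genes and 52 of 54 G2/M phase genes were lower in siELMO1, against 31.3% of all genes, with medians of -1.39 and -1.69. At 24 h the medians were -0.02 and 0.02, with 11 S phase genes higher and 14 lower and 12 G2/M genes higher and 14 lower, shares near those of all genes. Without replicate 3 of both groups the G2/M counts were 19 higher and 11 lower, and the S phase counts 10 and 9. By the interaction test the signed difference was higher at 24 h than at 0 h in 42 of 43 and 53 of 54, against 16.7% of all genes. At the median, the deficit that siELMO1 had at 0 h was nearly gone at 24 h.

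CDK1, the mitotic kinase, shows the pattern. At 0 h it was at 141, 145 and 140.5 CPM in siNT and 24.3, 23.3 and 22.3 CPM in siELMO1, and at 24 h at 65.8, 61.6 and 67.9 CPM in the siNT libraries and 63.2, 57.3 and 50.2 CPM in the siELMO1 libraries. The siNT libraries were lower at 24 h than at 0 h and the siELMO1 libraries higher, and at 24 h the groups overlapped (log2 fold change -0.19 at 24 h and -2.61 at 0 h, interaction 2.42, adjusted p = 1.74e-11). The 24 h value was called at adjusted p = 0.0209, and the call was lost without siELMO1 replicate 3 (-0.11, adjusted p = 0.128), siNT replicate 1 (-0.18, adjusted p = 0.0551) or siNT replicate 3 (-0.16, adjusted p = 0.0771), in a fit of the compared libraries alone (0.0829) and with no filter on low counts (0.081). Without replicate 3 of both groups it was -0.08 (adjusted p = 0.308). RRM2, the ribonucleotide reductase subunit of S phase, went from -1.95 to 0.04, and TOP2A, the topoisomerase of dividing cells, from -1.93 to 0.29. MKI67, the proliferation antigen, was still lower at 24 h (-0.46, adjusted p = 0.00408, and 0.0676 without replicate 3 of both groups), as was DSCC1, of cohesion establishment (-1.03). BRIP1, a helicase of crosslink repair, was higher (0.65, adjusted p = 1.56e-04). The median log2 fold change of G2/M genes against Mock at 24 h was -0.50 for siELMO1 and -0.50 for siNT, values that share the Mock libraries. Among 26 CDK inhibitors and p53 targets 15 fell (57.7%) and 4 rose (15.4%), against 26.5% and 26% of all genes (median -0.22). CDKN1A (p21) was at 483, 485 and 471 CPM in the siNT libraries and 277, 262 and 269 CPM in the siELMO1 libraries (-0.83, adjusted p = 7.13e-11).

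**Figure D4:**
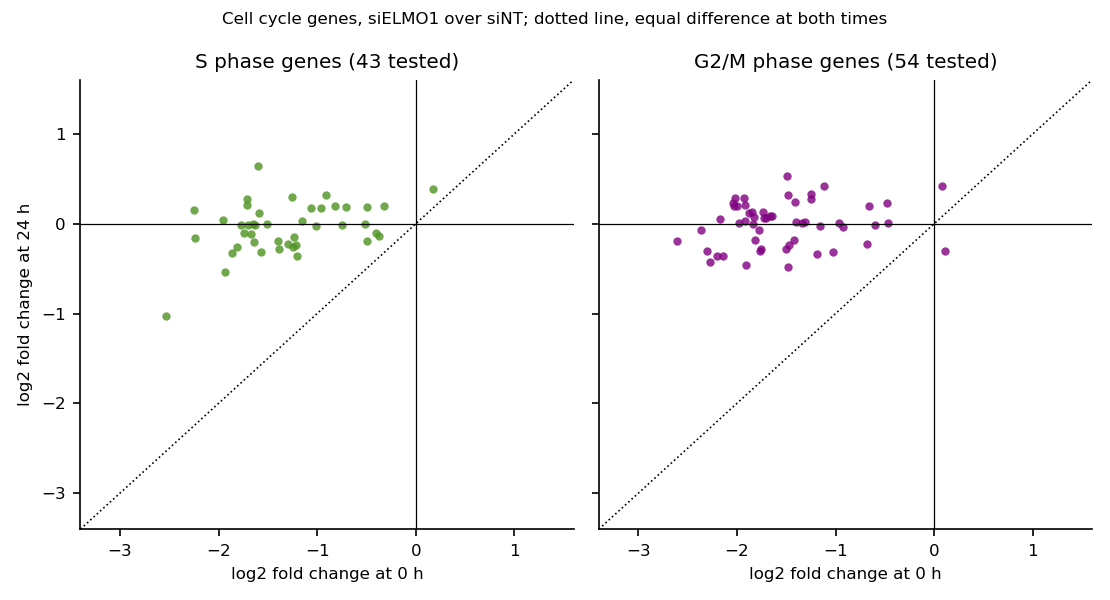
Each point is 1 tested gene of the S phase list (43 genes, left) or the G2/M phase list (54 genes, right), with its log2 fold change of siELMO1 over siNT at 0 h on the horizontal axis and at 24 h on the vertical axis. A gene with the same difference at both times would lie on the dotted line, and nearly all points lie above it, spread around 0 at 24 h.

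Of 23 tested ELMO, DOCK, RAC and WAVE genes, ELMO1 included, 7 rose (30.4%) and 9 fell (39.1%), against 26% and 26.5% of all genes (median -0.08). DOCK1 (DOCK180), the exchange factor that ELMO1 binds, was at 74.8, 76.3 and 76.9 CPM in the siNT libraries and 117, 123 and 126 CPM in the siELMO1 libraries (1.61-fold higher, log2 fold change 0.68, SE 0.06, adjusted p = 5.95e-08), and was further apart at 0 h (1.28, interaction -0.60, adjusted p = 3.08e-05). DOCK5, of the same subfamily, fell from 87.6, 94.7 and 77.4 CPM in siNT to 39.0, 40.4 and 37.3 CPM (-1.15). DOCK2, the leukocyte member, rose by 1.52, while DOCK4 fell by 0.34 at 24 h after being higher at 0 h (0.35). RAC1 was at 230.3, 224 and 218 CPM in the siNT libraries and 241, 249 and 251 CPM in the siELMO1 libraries (0.14, adjusted p = 0.0318), a call lost without siELMO1 replicate 2 (0.13, adjusted p = 0.0753), siELMO1 replicate 3 (0.13, adjusted p = 0.086), siNT replicate 2 (0.14, adjusted p = 0.069) or siNT replicate 3 (0.12, adjusted p = 0.0977). RAC2, the blood cell paralog, fell (92.7, 95.6 and 75.5 against 40.9, 38.0 and 34.1 CPM, -1.22), with Mock lower than both (21.9, 22.5 and 21.3 CPM). CYFIP1, a subunit of the WAVE complex on which RAC1 acts, fell by 0.86 and its partner BRK1 rose by 0.40.

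The genes with the largest changes also included several outside the lists. EFNA1, a membrane ligand of Eph receptors, was at 1.51, 1.21 and 2.22 CPM in the siNT libraries and 17.2, 18.6 and 20.9 CPM in the siELMO1 libraries (11.4-fold higher, log2 fold change 3.52, SE 0.27, adjusted p = 1.08e-08). PPP1R16B (TIMAP), a phosphatase subunit of endothelial cells, rose by 3.24, the zinc finger gene ZNF704 by 3.17 and the epithelial factor EHF by 3.02 (adjusted p = 0.00139). SULT1B1, a sulfotransferase, was at 211, 202 and 155 CPM in the siNT libraries and 31.3, 30.0 and 27.5 CPM in the siELMO1 libraries (6.39-fold lower, log2 fold change -2.68, SE 0.12, adjusted p = 1.97e-11). It was higher in siELMO1 at 0 h (1.01), when siNT libraries had 20.8, 19.8 and 20.7 CPM and siELMO1 libraries 42.9, 37.2 and 43.3 CPM, so its difference changed sign. ATP6V0D2, a proton pump subunit, fell by 3.18, the glucose kinase HKDC1 by 2.52, the phosphatase PTPN22 by 2.30, SYT11 by 2.26, PRSS3 by 2.21 and TMEM200C by 1.96 on the log2 scale. NRROS (-1.94) and STEAP2 (-1.94) completed the 12 that fell. The readthrough locus RAB4B-EGLN2 had the largest fold of the rule (0.348, 20.02 and 11.9 CPM in siELMO1, 0, 0.0535 and 0.0874 CPM in siNT), but it shares exons with RAB4B and EGLN2, varied widely among the siELMO1 libraries, and limma-voom gave an adjusted p of 0.188.

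Among long non-coding RNAs, THBS1-IT1, which lies within THBS1, was at 0.305, 0.589 and 0.315 CPM in the siNT libraries and 8.71, 7.73 and 7.76 CPM in the siELMO1 libraries (4.31, adjusted p = 5.51e-10), and its reads may come from THBS1 pre-mRNA. RDUR rose by 2.59 and DYNLRB2-AS1 by 2.83. ADIRF-AS1 was at 12.7, 11.9 and 9.07 CPM in the siNT libraries and 1.59, 2.50 and 3.89 CPM in the siELMO1 libraries (-2.09), LINC01605 fell by 1.96 and RASAL2-AS1 by 1.50 on the log2 scale. Antisense genes overlap coding genes here, and without the counting strand their reads cannot be told apart.

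Of 28 immediate-early factors tested 7 rose (25%) and 11 fell (39.3%), against 26% and 26.5% of all genes (median -0.12). EGR1 fell from 7.16, 9.37 and 6.54 CPM in siNT to 2.80, 2.64 and 2.73 CPM in siELMO1 (-1.50), the ERK inhibitor SPRY2 by 1.52 and the AP-1 subunit FOSL1 by 0.68. FOS overlapped between groups and was not called (-0.10, adjusted p = 0.788), and FOSB rose by 1.10.

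Markers of other cell types were checked as whole lists. Of 30 epithelial markers 12 were tested and 12, among them CDH1, KRT5 and KRT14, had at most 3 counts in each of the 6 libraries. Of those tested 6 rose (50%) and 2 fell (16.7%), against 26% and 26.5% of all genes. The summed level was 1172 to 1229 CPM in siNT and 1329 to 1570.1 CPM in siELMO1. KRT8 rose by 0.49 and CLDN1 by 1.17, and KRT18 did not pass (-0.09, adjusted p = 0.233). Of 18 fibroblast and smooth muscle markers 4 were tested and 2 rose, FAP and ACTA2 (ACTA2, 1.43, on the strand opposite FAS), with summed levels of 83.1 to 99.8 against 153 to 165 CPM. PDGFRA, DES, LUM and DCN were at the floor. Of 16 leukocyte markers LYZ and CD68 were tested and rose (0.89 and 0.50), and the summed level was 141 to 181 against 199.8 to 243 CPM. In this list 8 markers, CD3E, FCGR3A and SPI1 among them, were at the floor. Both summed levels were higher in siELMO1, and every marker of these 2 lists that was called rose. The rest of both lists was not called or did not pass the filter on low counts. Whether other cell types were present was not tested.

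The plot of list medians sets the lists side by side. Chemokines (1.46 against -0.11), cytokines (0.69 against -0.14) and both cell cycle lists lay far apart between 24 h and 0 h, and collagens, matrix glycoproteins, endothelial genes and the unfolded protein response lay on the same side at both times. The median over all genes tested was -0.01 at 24 h.

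**Figure D5:**
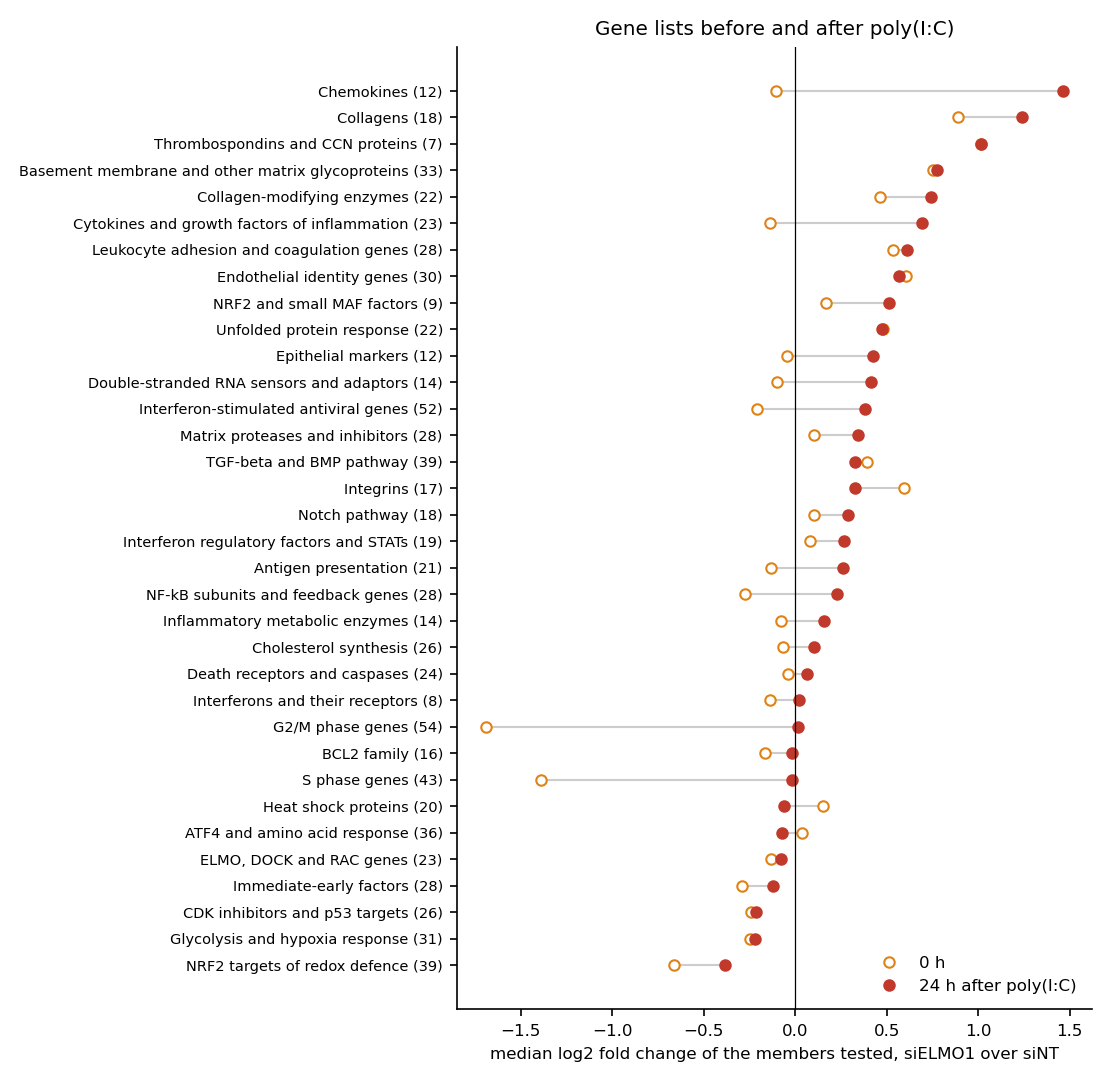
Each row is a gene list with at least 7 tested members (their number in brackets), with the median log2 fold change of siELMO1 over siNT at 24 h as a filled point and at 0 h as an open point. Chemokines have the highest median at 24 h (1.46), the NRF2 targets the lowest (-0.38), and the S phase and G2/M lists move from -1.39 and -1.69 at 0 h to near 0.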

How the data were processed

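Messenger RNA of EA.hy926 cells was sequenced after preparation with a stranded kit, in 18 libraries of 6 groups of 3 (Mock, siNT and siELMO1, at 0 h and 24 h of poly(I:C)). Per the study's methods the authors aligned the reads with STAR to GRCh38, estimated transcript and gene abundance with StringTie, and deposited estimated counts (expected counts) per gene and per transcript, used here as whole numbers. The strand used in counting is not given in the sources used here, so a gene that overlaps another can hold its reads. 1 read pair may stand for more than 1 estimated count, so intervals and floors cover counting error only, and a floor of 3 counts was used. The annotation matched GENCODE v44 in 62700 of 62754 gene identifiers.

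As in the study, genes under 100 counts in total, or under 1 CPM in their highest library, were left out, which kept 15167. They were scaled by TMM and fitted over all 18 libraries with edgeR 4.0.16 in R 4.3.3 by the quasi-likelihood test, with Benjamini-Hochberg adjustment over all genes tested. Contrasts were siELMO1 against siNT at 24 h and at 0 h, the difference between them, and each siRNA group against Mock at 24 h. The procedure was tested on simulated data. The members of the gene lists and the genes named were chosen with earlier results of these data known. Named are, in each direction, the 12 protein-coding genes with the largest fold past both thresholds, a mean of at least 5 CPM in the higher group and no overlap of libraries, the 3 long non-coding RNAs with a mean of at least 2 CPM, the 5 genes with the largest change between the times, the key and 3 most changed members of each list, and the genes the study names. Alternatives were DESeq2 1.42.0, limma-voom (limma 3.58.1), other scaling factors and filters, a fit of the compared libraries only, a replicate block, and leaving out libraries. Promoter sequences and coordinates are from RefSeq (GRCh38.p14), and 10689 genes tested had one.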

Additional observations from a re-analysis of the deposited data

Results flagged for a closer look

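The difference between siELMO1 and siNT was itself compared between 24 h and 0 h by the interaction test in edgeR, at adjusted p under 0.05 and a change of more than 2-fold. With its sign kept, the difference was higher at 24 h in 581 genes and lower in 360. The values below are log2 changes of that difference for the named genes that passed, positive where siELMO1 gained on siNT between the times.

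Inflammatory and interferon-induced genes that gained were CXCL1 (5.19), CSF2 (4.84), CXCL2 (2.78), LTB (2.69), CCL2 (2.00) and CXCL8 (1.53) among the secreted factors, ZC3H12A (3.06), BIRC3 (2.27), TNFAIP2 (2.16), NFKBIZ (1.80), SOD2 (1.54) and TNFAIP3 (1.42) among NF-κB targets, and OASL (2.42), ISG15 (1.10) and OAS1 (1.02) among antiviral genes. KYNU (1.51) and GCH1 (1.45), enzymes of tryptophan and tetrahydrobiopterin metabolism, gained, and PTGS2 (-1.85) and the interferon signalling factor IRF9 (-1.05) went down. Fitted values were also positive for TNFSF13B (6.97), GBP5 (6.78) and AIM2 (5.21), but the siELMO1 libraries of these genes were listed at 0 before poly(I:C), so their size depends on the prior count of the fit and is no bound. The same holds for the readthrough locus BIVM-ERCC5 (fitted -15.59), which was at 0 in some libraries and shares exons with both of its genes.

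Cell cycle genes that gained were BRIP1 (2.25), RRM2 (1.99), CCNE2 (1.56), CDC6 (1.55), DSCC1 (1.51), MCM2 (1.44), WDR76 (1.40), UNG (1.23) and PCNA (1.08) of S phase, and CDK1 (2.42), TOP2A (2.21), CDC20 (2.00), ANLN (1.85), CCNB2 (1.74), AURKA (1.63), HMMR (1.58), BIRC5 (1.54), MKI67 (1.44) and GAS2L3 (1.00) of G2 and mitosis. Of the BCL2 family and the death receptors, BCL2L12 (1.34) and BAK1 (1.00) gained and TNFRSF10D (-1.05) lost. Matrix genes went both ways, with CCN3 (1.50), CCN5 (1.27), COL12A1 (1.23) and LOXL2 (1.04) up and EFEMP2 (-1.15) and MMP14 (-1.03) down. The long non-coding RNA THBS1-IT1 (1.71), which lies within THBS1, gained as well.

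Vascular and growth factor genes that lost were PLAT (-1.70), INHBA (-1.62), THBD (-1.60) and CLEC14A (-1.26), together with the immediate-early and feedback genes FOS (-1.30), EGR1 (-1.19), FOSB (-1.14) and SPRY2 (-1.06), whereas KLF4 (1.70) gained. The epithelial junction genes CLDN1 (2.02) and OCLN (1.07), LYZ (1.04) and INSIG1 (1.13) gained. Further losses were HSPA6 (-3.94), a heat shock gene, SULT1B1 (-3.69), NEXN (-2.91), PTPN22 (-2.19), ATP6V0D2 (-2.18), PRSS3 (-1.54), AKR1C1 (-1.48), STEAP2 (-1.19) and ADIRF-AS1 (-1.03). NEXN, an actin-binding protein, had levels of 1.48, 1.77 and 1.69 CPM (siNT, 0 h), 3.45, 8.35 and 6.40 CPM (siELMO1, 0 h), 9.56, 11.5 and 16.2 CPM (siNT, 24 h) and 5.54, 5.98 and 6.51 CPM (siELMO1, 24 h), so its order turned over.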

How the results depend on the processing

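Every main count, and the fall of ELMO1, stayed within 1.5 times of its value and on the same side of its threshold under each alternative. With 1 library left out at a time, the genes more than 2-fold higher ranged from 673 to 855 and those lower from 345 to 425, the extremes being without siNT replicate 2 and without siNT replicate 3. By adjusted p alone they ranged from 3497 to 3854 higher and from 3519 to 3935 lower. The genes with a higher signed difference at 24 h ranged from 541 to 685 and those with a lower one from 320 to 434. Both counts were highest without siELMO1 0 h replicate 1. The log2 fold change of ELMO1 ranged from -3.89 to -3.36. Over other scalings, filters and tools, the counts ran from 650 (library totals) to 885 (edgeR's filterByExpr) higher and from 362 to 477 lower. Library totals moved the median of all genes to -0.05.

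The labels give the groups the same replicate numbers. Deviations of same-numbered siNT and siELMO1 libraries correlated with -0.139, 0.028 and 0.454 over 9644 genes, so the numbers were not taken to pair the samples, and not every library correlated best with its own number. With the replicate number as a block, 740 genes were higher and 381 lower. Among the genes described above CASP8 (adjusted p = 0.0271), OAS1 (0.0397), TNFSF13B (0.0174), AIM2 (0.0299) and AURKA (0.0363) gained the call. Leaving out replicate 3 of both groups, chosen after the spread between replicates was seen, gave 764 higher and 394 lower genes, of which 629 and 310 were shared with the full set.

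For single named genes, 5485 of 5678 values kept direction and call, 122 lost the call, 71 gained it and none was reversed. Of the list medians 14 of 612 moved by more than the spread between replicates, in the lists of double-stranded RNA sensors (0.31 to 0.54), the unfolded protein response, collagens, NRF2 and small MAF factors, ELMO and DOCK genes, and fibroblast markers. Genes with few counts are limited by depth: a count of 0 allows 0.0454 to 0.0599 CPM in these libraries.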
